A study of Homo sapiens with 2 samples.

Results

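The genes described are the EB1 family and other proteins that act on microtubule plus ends and on microtubule growth: MAPRE1, MAPRE2, MAPRE3, CLASP1, CLASP2, CLIP1, DCTN1, CKAP5, STMN1 and MAP4. They were taken by gene symbol, which gave 10 of 18132 genes and 48 of 49293 probe sets on the array. The group was drawn up after MAPRE1 had been seen to differ between the same arrays, so every value below is a description. Expression was measured in HCT116, a human colorectal carcinoma line, on Affymetrix PrimeView arrays that read probe set intensities from biotin-labelled cRNA. The control cells carried a scrambled short hairpin RNA (Scr) and the knockdown cells carried 1 hairpin against SUN2 (shSUN2-1), with otherwise the same line and medium. SUN2 spans the inner nuclear membrane and, within the LINC complex, couples the nucleus to the cytoskeleton, and the comparison asked which transcripts lie downstream of it. Each group held 1 array, so no value has a replicate, a standard deviation between cultures or a test. How the hairpin was delivered, whether the cells were a pool or a clone, and the time after delivery are not given in the sources used here.

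A microtubule grows and shrinks mainly at its plus end. Proteins of the EB family bind the growing end through a calponin homology domain and recruit most other plus-end proteins through a C-terminal domain. Partners with a CAP-Gly domain, such as CLIP1 and DCTN1, and partners with a short SxIP motif, such as the CLASPs, reach the end in this way. CKAP5 adds tubulin to the end, STMN1 binds free tubulin and promotes shrinkage, and MAP4 binds along the lattice and stabilises it, so STMN1 and MAP4 are regulators of growth rather than end trackers.

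Differences are on the log2(intensity + 16) scale, with the control array subtracted from the knockdown array, and the added constant shrinks the difference of dim probe sets. Folds and fold cutoffs are on the same scale, so a fold is smaller than the ratio of the intensities printed beside it. A gene was represented by its brightest probe set, and counted as past the filter when the mean of both arrays reached the median of all probe sets, an intensity of about 108. By this filter 9 of the 10 genes and 23 of the 48 probe sets were kept, and 25 probe sets lay below it. Error could be gauged only from the scatter of probe sets around their gene's mean, an SD of 0.09 over 5786 genes with at least 2 probe sets past the filter. This SD holds every source of difference between the probe sets of a gene, and nothing of how cultures vary. The targeted gene, SUN2, was lower on all 6 of its probe sets, but the decrease was small. Of its 4 probe sets past the filter, the 3 bright ones read between 75.4% and 81.8% of control and the dim one read 94.6%. The SUN2 difference was -0.28 on its brightest probe set and -0.21 as the mean of all 6. The other bright SUN2 probe sets differed by more, -0.36 and -0.39. A larger decrease than that of SUN2 on its brightest probe set was seen in 80 genes past the filter, MAPRE1 (-1.05) among them. The epithelial markers EPCAM (1342 in control, 1480 in knockdown), KRT8 and KRT18 were bright on both arrays, while VIL1 and CEACAM5 lay below the filter. Of the 7 epithelial markers past the filter, 6 were higher in the knockdown array (49.8% of all genes were), with a median of 0.14. After quantile normalization 5 of 7 were higher (median 0.03, all genes 41.1%), and after loess 5 of 7 (0.04, 46.3%). KRT8 was higher on all 8 of its probe sets by 0.34 to 0.58. Of the other cell type markers measured, 4 of 8 fibroblast, 3 of 7 immune and 6 of 8 endothelial genes passed the filter, which is no evidence of expression because background remains in the values, and all 13 read slightly lower in the knockdown array, where 50.2% of all genes were lower. Summed over every measured marker of each list, intensity went from 7909 to 9223 for the epithelial list and from 1004 to 958, from 940 to 863 and from 1283 to 1213 for the others. No marker was listed at 0, and their part in the values below was not tested.

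MAPRE1 (Entrez 22919) encodes EB1, the most widely expressed member of the family and the core of the plus-end network. Its brighter probe set read 546 in control cells and 256 after knockdown, 46.9% of control. Its dimmer probe set read 182 and 110, 60.3% of control. Both probe sets were therefore lower in the knockdown array, and the gene has no other probe set on the array. A shared direction is common: of 5786 genes with at least 2 probe sets past the filter, 63.9% had all of them on the same side. The log2 differences of MAPRE1 were -1.05 (2.06-fold lower) and -0.66 (1.57-fold lower). In bulk RNA, fewer cells with the transcript and less transcript per cell cannot be told apart.

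**Figure D1:**
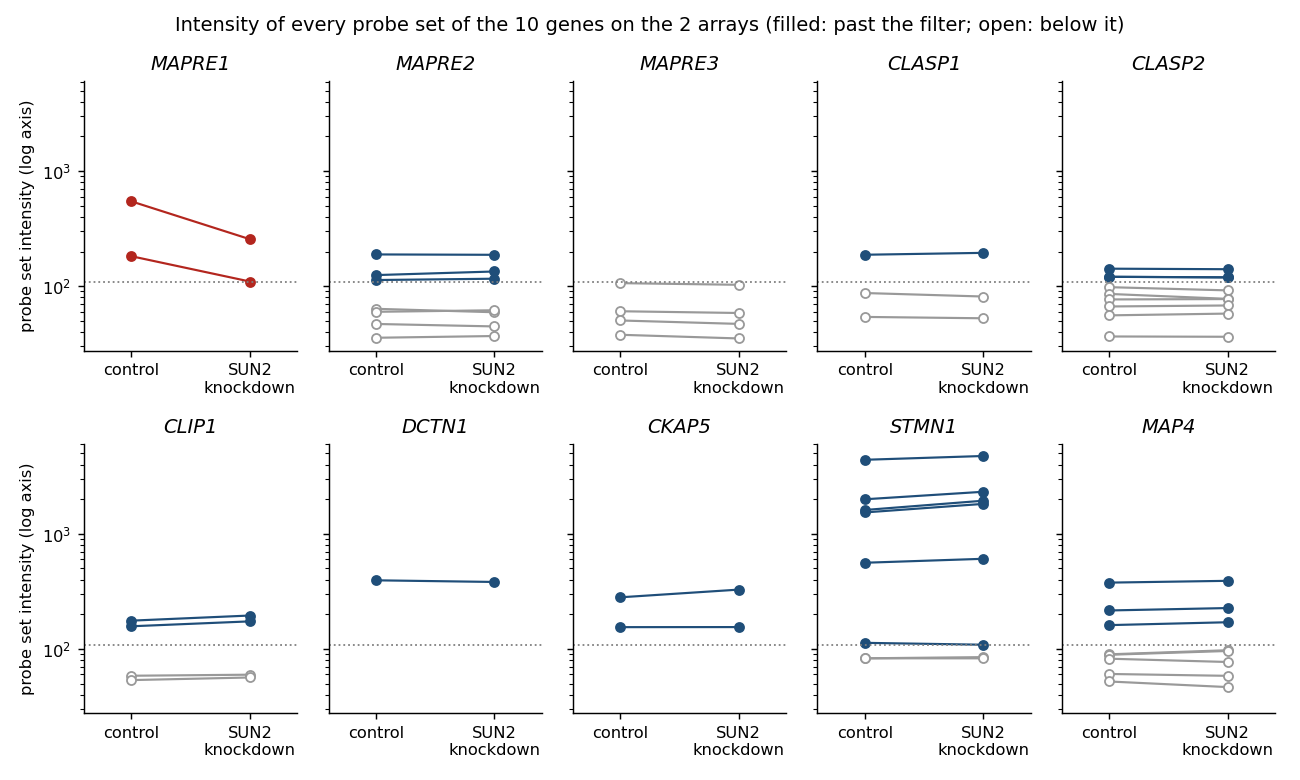
Intensity of every probe set of the 10 genes (log axis) on the control and SUN2 knockdown arrays, 1 line per probe set; filled points are past the filter on low values, open points below it, and the dotted line marks the filter. Both MAPRE1 lines slope down, from 546 to 256 and from 182 to 110, while the lines of the other 9 genes are close to level.

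The 2 MAPRE1 probe sets differed in size by more than probe sets of a gene usually do. Their gap of 0.39 compares with a median gap of 0.07 over 3191 genes with 2 probe sets past the filter. Of those genes, 1.32% had a gap at least as wide. The 3191 genes were not matched to MAPRE1 in the size of the difference. The loss was 289.7 intensity units on the brighter probe set and 72.3 on the dimmer one. Background was still present in these values. On the control array the brighter probe set lay above 19 and the dimmer one above 16 of the 23 background controls, probe sets without a human target that span a range of G and C content. On the knockdown array they lay above 17 and 14. These controls differed between the arrays by -0.33 to 0.01, with a median of -0.04 and 20 of the 23 lower in the knockdown array. The base content of the MAPRE1 probes was not used here, so the part of background in the size of the MAPRE1 difference was not tested. After a normexp correction, which models background on each array, the differences were -1.15 and -0.84. The current RefSeq list names 3 pseudogenes of MAPRE1 (MAPRE1P1, MAPRE1P2 and MAPRE1P3), and probe sequences were not used to ask whether they share its probe sets.

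Of the 10 genes, MAPRE1 was the 1 at least 1.5-fold lower, and it also passed 2-fold. Over all 12220 genes past the filter, 0.0245% were at least 1.5-fold lower and 0.00818% at least 2-fold lower, a background that includes MAPRE1 and from which nothing is read, since MAPRE1 was chosen from this contrast. None of the 10 genes was at least 1.5-fold higher, against 0.336% of all genes. Only 6 of 22628 probe sets with 1 gene symbol past the filter were at least 1.5-fold lower (0.0265%). They belong to MAPRE1, TUBA1A, HACD2 and DDR1. MAPRE1 and TUBA1A have 2 of 2 past the filter, HACD2 has 1 of 1 and DDR1 has 1 of 4. HACD2 read 865 in control and 483 in knockdown, a difference of -0.82. That is nearer to MAPRE1 than the genes of the next paragraph, where at least 2 probe sets past the filter were required.

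The 3 genes most like MAPRE1 were taken as those with the nearest difference among 5785 other genes with at least 2 probe sets past the filter. This likeness rests on 2 arrays and is only a similar size of difference. TUBA1A, an alpha-tubulin, read 713 in control and 413 in knockdown on 1 probe set and 486 and 296 on the other, with differences of -0.77 and -0.69. Both of its probe sets are of the class that the array design marks as prone to cross-hybridise (_x_at), and alpha-tubulin genes are close copies of each other. GNG12, a G protein gamma subunit, followed at -0.57 on its brightest probe set and -0.20 on the other. ALDOC, a glycolytic aldolase, stood at -0.55, with its other 4 probe sets between -0.32 and -0.22.

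**Figure D2:**
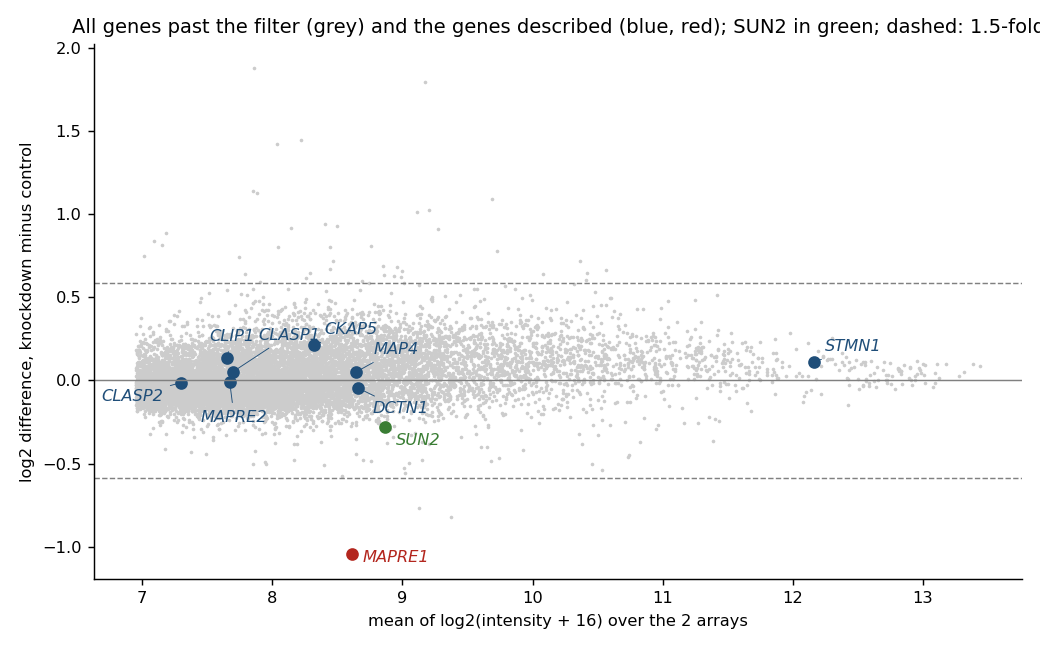
Log2 difference (knockdown minus control) against mean log2(intensity + 16) for the 12220 genes past the filter in grey, with 9 of the 10 genes described in blue or red and SUN2 in green; dashed lines mark 1.5-fold. MAPRE1 lies at -1.05 and the other 8 genes of the group between -0.05 and 0.21.

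The other EB proteins were near level between the arrays. MAPRE2 (Entrez 10982) encodes EB2, which binds growing ends more weakly than EB1 and recruits fewer partners. Its brightest probe set read 189 in control and 187 in knockdown, a difference of -0.01. The other 2 of its probe sets past the filter read 125 and 134, and 113 and 116, with differences of 0.09 and 0.03. No MAPRE2 probe set past the filter was therefore lower by more than 0.01, and all 7 lay between -0.08 and 0.09. MAPRE3 (Entrez 22924) encodes EB3, best known from neurons and muscle. All 4 of its probe sets lay below the filter, where values hold much background. The brightest read 106 and 103, a difference of -0.04, and the 4 ran from -0.07 to -0.04. Values below the filter were lower in 66.4% of all probe sets, so 4 lower ones of 4 are no mark of MAPRE3.

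The CLASPs, which rescue shrinking microtubules and anchor plus ends at the cell cortex, also read alike on both arrays. CLASP1 (Entrez 23332) had 1 probe set past the filter, at 188 in control and 195 in knockdown, a difference of 0.05. Its 2 probe sets below the filter differed by -0.08 and -0.03, so the sign of CLASP1 depends on the probe set. CLASP2 (Entrez 23122) had 9 probe sets, of which 3 passed. They read 142 and 141, 121 and 119, and 121 and 119. These 3 agreed closely with each other, at -0.01, -0.02 and -0.01, and the 6 dim ones spread from -0.12 to 0.04.

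The CAP-Gly proteins gave small differences in opposite directions. CLIP1 (Entrez 6249) encodes CLIP-170, which tracks growing ends and links them to vesicles and dynactin. It read 176 in control and 195 in knockdown on its brightest probe set and 157 and 174 on the second. The differences were 0.14 and 0.13, a gap of 0.007, and the 2 dim probe sets were higher as well, by 0.02 and 0.06. CLIP1 was the only one of the 10 genes with more than 2 probe sets that were all higher. DCTN1 (Entrez 1639) encodes p150Glued, the dynactin subunit that binds microtubules and dynein. Its 1 probe set read 395 and 382, a difference of -0.05 with no second probe set to set beside it.

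CKAP5 (Entrez 9793) encodes ch-TOG, the polymerase that speeds plus-end growth, and had the highest value of the 10 genes on its brightest probe set. That probe set read 281 in control and 328 in knockdown, 1.16-fold higher or 0.21 on the log2 scale. The second read 155 on both arrays, a difference of 0.002. The 2 probe sets disagree, and a gap at least as wide was found in 10.2% of genes with 2 probe sets past the filter.

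STMN1 (Entrez 3925) encodes stathmin, which sequesters tubulin dimers and is highly expressed in many tumour lines. Its brightest probe set read 4399 in control and 4747 in knockdown, a difference of 0.11. The next 3 read 1996 and 2320, 1611 and 1939, and 1534 and 1821, with differences of 0.21, 0.26 and 0.24. Another read 561 and 607 (0.11). All 5 bright probe sets were thus higher in the knockdown array. The sixth past the filter, at 113 and 109, was not (-0.05), and the 2 below it differed by 0.03 and -0.0001. Bright probe sets as a class were higher in the knockdown array: the brightest of 10 equal bins of all probe sets had a median of 0.10 with quartiles of -0.001 and 0.20. The 5 bright STMN1 probe sets belong to that bin, and once the trend with intensity was removed by loess they stood between 0.0007 and 0.16. The RefSeq list names 2 pseudogenes of STMN1 (STMN1P1 and STMN1P2), whose match to these probes was not examined.

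MAP4 (Entrez 4134) encodes the main microtubule-stabilising protein of the lattice outside the nervous system. Its 3 probe sets past the filter read 377 and 391, 216 and 227, and 161 and 171. All 3 were higher in the knockdown array by a similar, small amount, at 0.05, 0.06 and 0.08. The 5 dim probe sets spread to both sides, from -0.12 to 0.10.

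**Figure D3:**
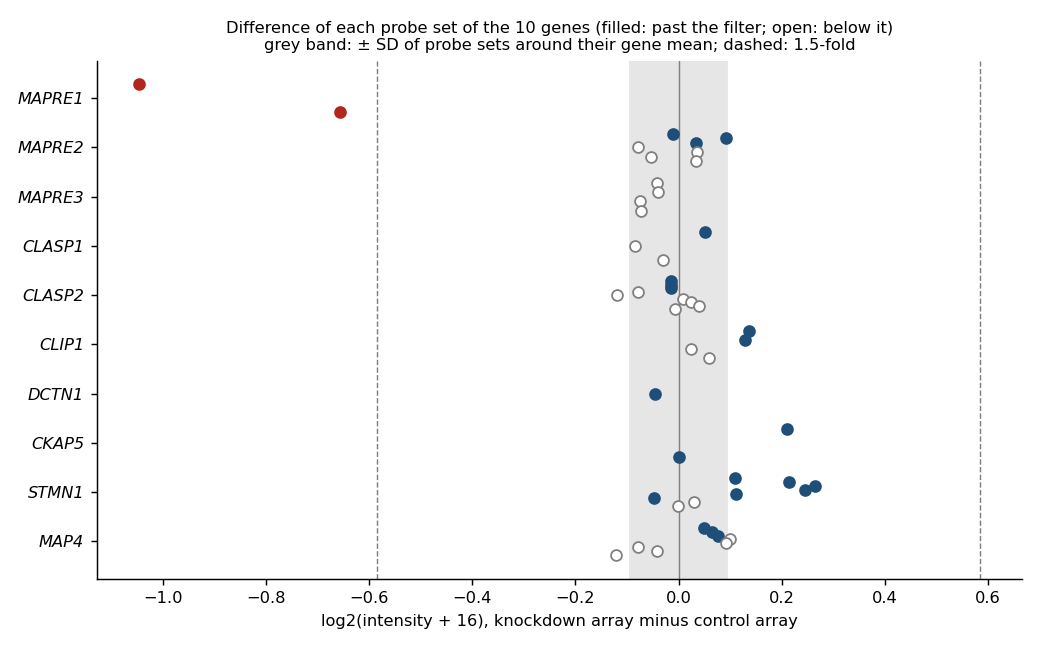
Log2 difference (knockdown minus control) of each of the 48 probe sets of the 10 genes, filled past the filter and open below it; the grey band is the SD of probe sets around their gene's mean (0.09 to each side) and dashed lines mark 1.5-fold. The 2 MAPRE1 probe sets lie at -1.05 and -0.66, and every other probe set lies between -0.12 and 0.26.

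Apart from MAPRE1, differences in the group were small, and the balance of higher and lower genes moved with the scaling of the arrays. Over the 8 other genes past the filter the median difference was 0.05, with 5 higher and 3 lower, beside a median of -0.0009 and 49.8% higher over all genes. Of the same 8 genes, 7 were higher after median centring and 7 after loess, where 55.3% and 46.3% of all genes were higher, and 4 after quantile normalization, where 41.1% were. Of the 9 genes, 5 lay within 1 SD of the scatter of probe sets around their gene's mean (0.09) of zero, against 52.0% of all genes. CLIP1, CKAP5 and STMN1 were the genes beyond it besides MAPRE1, at 1.44, 2.23 and 1.16 times that SD. By probe set, 8 of 23 past the filter were lower against 49% of all such probe sets, or 6 of 21 without MAPRE1. Below the filter 15 of 25 were lower against 66.4%.

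The wider set of microtubule regulators differed little between the arrays. A total of 5 lists by role, none holding the genes above, named 105 genes, of which 102 had a probe set and 80 passed the filter. Of these 80, 44 were higher and 36 lower, with a median of 0.01 and a range of -0.29 to 0.43. None of the 80 reached 1.5-fold in either direction, beside 0.36% of all genes, so the count says nothing particular to these lists.

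Other plus-end trackers and their partners were lower in 21 of 29 genes, with a median of -0.05, beside 50.2% lower and a median of -0.0009 over all genes. The count was 24 of 29 after quantile normalization and 23 of 29 after loess, where 58.8% and 53.7% of all genes were lower. The lowest was GAS2L1, which links actin to microtubule ends, at -0.22, and its 3 probe sets were all lower. The highest was PHLDB2, a cortical protein that binds CLASPs, at 0.43. It read 1571 in control and 2117 in knockdown, and its 3 probe sets past the filter were higher by 0.39 to 0.47.

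Genes of dynein, dynactin and their regulators around LIS1 were higher in 17 of 19, with a median of 0.09, beside 49.8% of all genes. Both rest in part on the processing. After quantile normalization 12 of 19 were higher (median 0.02, all genes 41.1%), after loess 14 of 19 (0.03, 46.3%), and with probe sets averaged per gene 14 of 19 (0.04, 47%). The dynein adaptor BICD2 was the highest at 0.43, from 309 to 420, although its 5 probe sets that passed spanned 0.02 to 0.43. NDE1, a LIS1 partner, was the lowest at -0.11, and its second probe set differed by 0.05.

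The remaining lists were split, beside 49.8% of all genes higher as deposited and 41.1% after quantile normalization. Among destabilisers and severing enzymes 5 of 8 were higher (median 0.05), from the katanin-like gene KATNAL1 at -0.29 on its 1 probe set past the filter to the kinesin KIF18A at 0.23 on its only probe set. Their split was 3 higher and 5 lower after quantile normalization. Lattice-binding MAPs and their kinases were higher in 7 of 14 (median 0.007), from the tau gene MAPT at -0.15 to MAP7D1, a kinesin cofactor, at 0.38. Minus-end and nucleation genes were higher in 7 of 10 (median 0.03) and in 4 of 10 after quantile normalization, between CAMSAP3 at -0.12 and CAMSAP1 at 0.15.

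**Figure D4:**
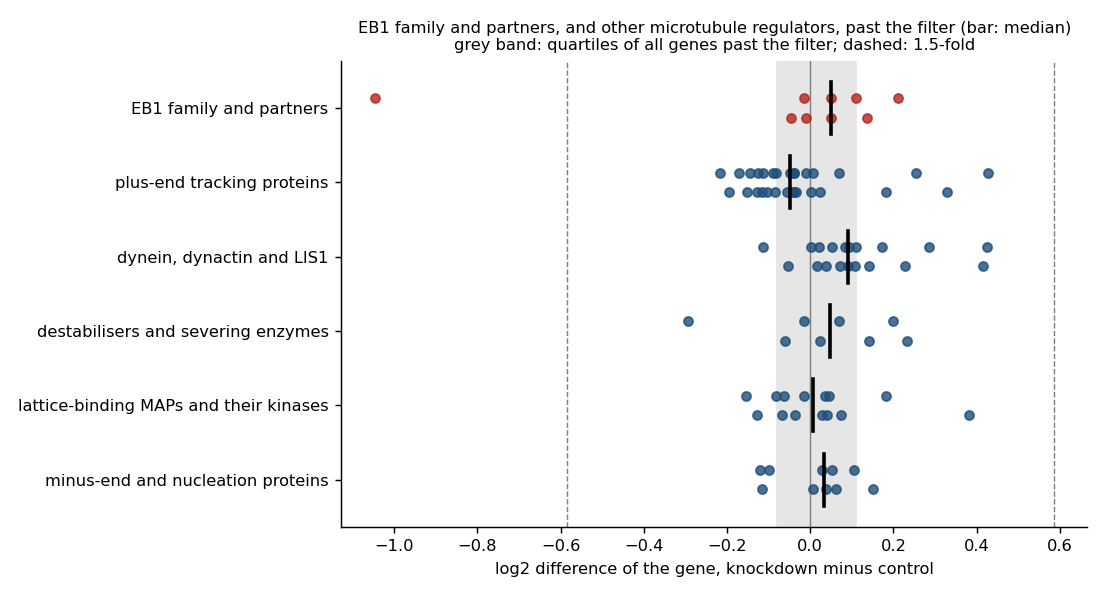
Log2 difference (knockdown minus control) of each gene past the filter, for the EB1 family, its plus-end partners, STMN1 and MAP4 (9 genes, red) and 5 lists of other microtubule regulators (blue); black bars are medians, the grey band spans the quartiles of all genes past the filter (-0.08 to 0.11) and dashed lines mark 1.5-fold. MAPRE1 at -1.05 is the 1 point past 1.5-fold, and the other points lie between -0.29 and 0.43.

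Across the 10 processing settings tried, the MAPRE1 difference stayed between -1.15 and -0.85, and MAPRE1 had the lowest value of all genes past the filter in each of them. It was not 2-fold lower with a pseudocount of 64 (1.91-fold) or with the mean of its probe sets (1.80-fold). DCTN1 kept its sign in the 9 settings that gave it a value, CLIP1 in 8, and CKAP5 and STMN1 in all 10. STMN1 was at 0.0007 after loess, and CKAP5 at 0.11 with the mean of its probe sets. The signs of MAPRE2, CLASP1, CLASP2 and MAP4 each turned in at least 1 setting, with values from -0.02 to 0.09 over these 4 genes.

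**Figure D5:**
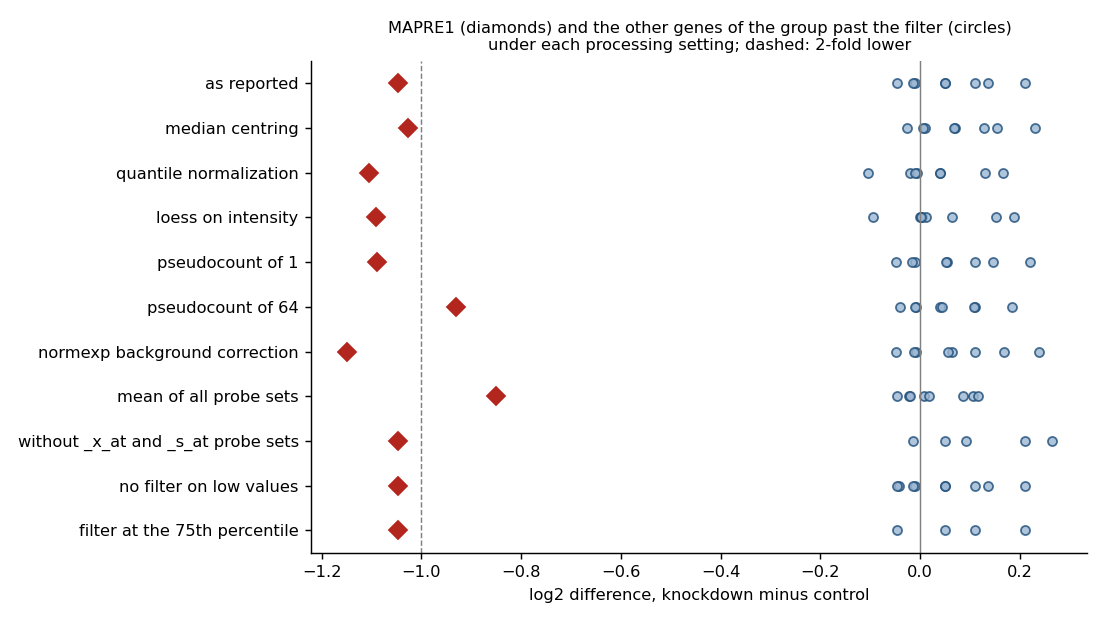
Log2 difference (knockdown minus control) of MAPRE1 (red diamonds) and of the other genes of the group past the filter (blue circles) as reported and under 10 other processing settings; the dashed line marks 2-fold lower. MAPRE1 stays between -1.15 and -0.85 and the other genes lie between -0.11 and 0.26.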

How the data were processed

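Probe set intensities were used as the authors deposited them, on a linear scale with 1 column per array. MAS5 and RMA are named in the submitters' processing notes, with no role or order. Scale, centring and normalization between the arrays stay unknown. Median intensities were 108.8 (control) and 107.1 (knockdown), and no detection call was used. The number of arrays limits the precision.

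Control probe sets (102) were left out. The platform annotation named 1 gene for 44988 of the remaining 49293, more than 1 for 1832 and no gene for 2473. Names were brought up to date by Entrez ID in the RefSeq table of GRCh38.p14 (44961 matched). Its coordinates were used only to order the neighbours of MAPRE1. The filter uses the mean of both arrays, so a dim gene that is much lower in 1 array can drop out. Named were all 10 genes, SUN2, the highest and lowest gene of each regulator list, any list gene past 1.5-fold, and the 3 genes nearest to MAPRE1. HACD2 and DDR1 were named after their values were seen. The genes and lists were chosen with earlier results of these data known. The 10 alternatives changed the normalization (median centring, quantile, loess with span 0.3), the pseudocount (1, 64), the background (normexp, limma 3.58.1), the probe sets and the filter. The steps were tested on simulated data with known changes.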

Additional observations from a re-analysis of the deposited data

How the results depend on the processing

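No paired analysis was possible because there is 1 array per group, which also means that none could be omitted. A value was taken as moved when it shifted by more than the SD of probe sets around their gene's mean (0.09), and a count when it shifted by more than 1.5 times. The MAPRE1 difference moved to -0.93 with a pseudocount of 64, to -1.15 with normexp and to -0.85 with the mean of all probe sets, the last because the dimmer probe set then enters. The number of probe sets of the 10 genes that were lower in the knockdown array (8 of 23) was 4 after median centring and 4 after loess. Of all genes past the filter, 44.7% and 53.7% were lower in these settings. It was 23 without a filter on low values and 2 with a filter at the 75th percentile, which follow from the number of probe sets counted. As deposited, 49% of all probe sets past the filter and 66.4% of those below it were lower. Shares over all probe sets in the other settings are not given, so nothing particular to the 10 genes is read from these counts. The SUN2 difference and the counts of genes past 1.5-fold, in the group and in the regulator lists, moved in none of the 10 settings. Among the other 9 genes, STMN1 moved to 0.26 and MAPRE2 to 0.09 without _x_at and _s_at probe sets, STMN1 to 0.0007 after loess, and CKAP5 to 0.11 with the mean of all probe sets. Background left in the values limits every size given for a dim probe set.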

Other observations

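The genes next to MAPRE1 in the RefSeq order, 5 protein-coding genes on each side, were examined after the values were seen. Of these 10 neighbours, 4 passed the filter. DNMT3B, a de novo DNA methyltransferase and the nearest gene on one side, read 263 in control and 239 in knockdown (-0.13). EFCAB8, the nearest on the other side, read 131 and 122 (-0.09). COMMD7 differed by 0.13 and ASXL1 by -0.02. SUN5, a SUN-domain gene known from sperm and the second gene on that other side, lay below the filter at 75.2 and 71.9. No neighbour with a probe set differed by more than 0.13 in either direction.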
